A study of Mus musculus with 12 samples.

Results

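The genes described here are 39 members of the machinery that copies DNA and supplies its building blocks, measured in B16-OVA mouse melanoma cells with and without an inhibitor of the kinase MEK. They were chosen by name as enzymes of deoxynucleotide synthesis, the sliding clamp and its loaders, the GINS and origin recognition proteins, the DNA polymerases and primase, the single-strand binding and lagging-strand proteins, and the factors of histone supply and S phase control. The choice was made with earlier results of these data known, so the counts below are descriptions and not independent support. Of the 39 members, 38 had a probe set of their own on the array, out of 18193 genes that had one. The annotation used here paired no probe set with Chaf1a, a subunit of the histone chaperone CAF-1, which was therefore not analysed. Of the measured members, 37 had a mean signal above the median probe set of 5.363 on the log2 scale, and Tyms lay below it.

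In a dividing cell, origins of replication are marked by the origin recognition complex and loaded with the MCM helicase before S phase, and GINS joins the helicase when the origin fires. Primase and polymerase alpha then lay down short primers, the RFC complex places the ring-shaped clamp PCNA on the DNA, and polymerases epsilon and delta extend the leading and lagging strands, while RPA covers the exposed single strands. Ribonucleotide reductase and the thymidylate enzymes supply the deoxynucleotides. Many of these genes are known as targets of E2F transcription factors, which are released when cyclin D kinases phosphorylate the retinoblastoma protein, and cyclin D1 is a known output of the MEK to ERK pathway.

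Cells received 100 nM GDC-0623, a MEK inhibitor (MEKi), or the solvent DMSO on the day after seeding, and were collected after 72 h or 24 h. The MEKi groups of 72 h and 24 h and the DMSO groups of 72 h and 24 h each held 3 arrays, 12 in all. All groups were the same cultured line, which carries the model antigen ovalbumin, at 1 concentration of 1 drug. The replicates are called biological in the series text, which does not state whether each came from its own culture, and the spread behind every p-value may therefore be technical only. Values are log2 RMA signals, the brightness of a probe set after background correction and after the arrays' distributions were made alike. A log2 difference is the mean with MEKi minus the mean with DMSO, or the mean of 72 h minus that of 24 h, and is given ± SE from a limma fit with 3 arrays in each group. The adjusted p is that of the fit after Benjamini-Hochberg adjustment over all probe sets. In a whole culture, fewer cells in S phase and less of each transcript per cell cannot be told apart.

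A few windows of sequence are shown first, because they are the places where a known regulator of these genes, E2F, could be read from the letters of the promoter. RefSeq windows of the build GRCm38.p6, from 250 bases before to 50 after a gene's annotated start, were at hand for 32 of the 39 members. The letters TTTGGCGC, TTTCCCGC, TTTGCCGC or TTTCGCGC, on either strand, were found for 9 of those 32 members (28.1%), against 2.6% of all 27025 genes with a window and 2.26% of all windows. In 5 members the first match lay before the start, and the stretch around it is given 5′ to 3′ on the strand of the gene with the matched letters in capitals.
Dtl, chr1:191575525-191575572, minus strand: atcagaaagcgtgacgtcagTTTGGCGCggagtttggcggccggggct
Orc1, chr4:108579407-108579454, plus strand: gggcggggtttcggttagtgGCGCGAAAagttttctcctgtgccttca
Rfc3, chr5:151651181-151651238, minus strand: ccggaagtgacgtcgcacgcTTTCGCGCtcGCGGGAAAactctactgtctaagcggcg
Gins3, chr8:95633498-95633545, plus strand: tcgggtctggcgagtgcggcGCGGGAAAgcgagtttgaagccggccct
Pola1, chrX:93632266-93632313, minus strand: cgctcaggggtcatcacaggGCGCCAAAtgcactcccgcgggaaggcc

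The Rfc3 stretch holds the letters on both strands, 2 matches in all. In Lig1, Pold1, Pold3 and Pole2 the matched letters began after the annotated start. The CCAAT letters of NF-Y, another factor known at cell cycle promoters, were in the windows of 59.4% of the members and of 41.1% of all genes, and the CHR letters TTTGAA in 15.6% and 20.2%, each on either strand. These are matches of letters, and no binding was measured.

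MEKi lowered the signal of most members, and more of them at 72 h than at 24 h. At 72 h, 28 of the 38 measured members were called lower and 0 higher by limma (adjusted p under 0.05 over all probe sets), where 5.14% of all genes were called lower and 4.03% higher. At 24 h, 18 were called lower and 0 higher, where 5.86% of all genes were called lower and 5.01% higher. All genes include many dim ones. In a fit of only the probe sets above the median probe set, 31 members were called lower at 72 h and 26 at 24 h. Of the 11334 genes read there, 1235 and 1966 were called lower. The median log2 difference of the members was -0.59 at 72 h and -0.27 at 24 h, beside medians over all genes of 0.01 and 0.007. Every array with MEKi lay below every DMSO array in 35 members at 72 h and in 33 at 24 h, where 14.4% and 18.3% of all genes did so.

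The falls were modest in size. The called members fell by 1.27-fold for Rrm2 to 1.84-fold for Dut at 72 h, and by 1.20-fold for Prim1 and Rfc1 to 1.62-fold for Dctpp1 at 24 h. Tyms was the only member with a difference above 0 at 72 h, at 0.14 ± 0.13 (SE; limma adjusted p = 0.62). At 24 h no member had a difference above 0, and Gins4 stood at 0.00.

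The 2 times shared 15 of the called members. Gins2, Orc1 and Pold3 were called lower at 24 h and not at 72 h, 13 were called lower at 72 h and not at 24 h, and 7 were called at neither time, namely Tyms, Pcna, Gins3, Gins4, Pola2, Rpa1 and Fen1. These calls are those of the brightest own probe set, and other probe sets of some of these genes differed in their calls. The difference was more negative at 72 h in 33 of 38 members, where it was so in 49.8% of all genes. Across the 38 members, which are not independent replicates, the differences of 72 h and 24 h correlated at r = 0.383, and the 2 comparisons share no array.

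**Figure D1:**
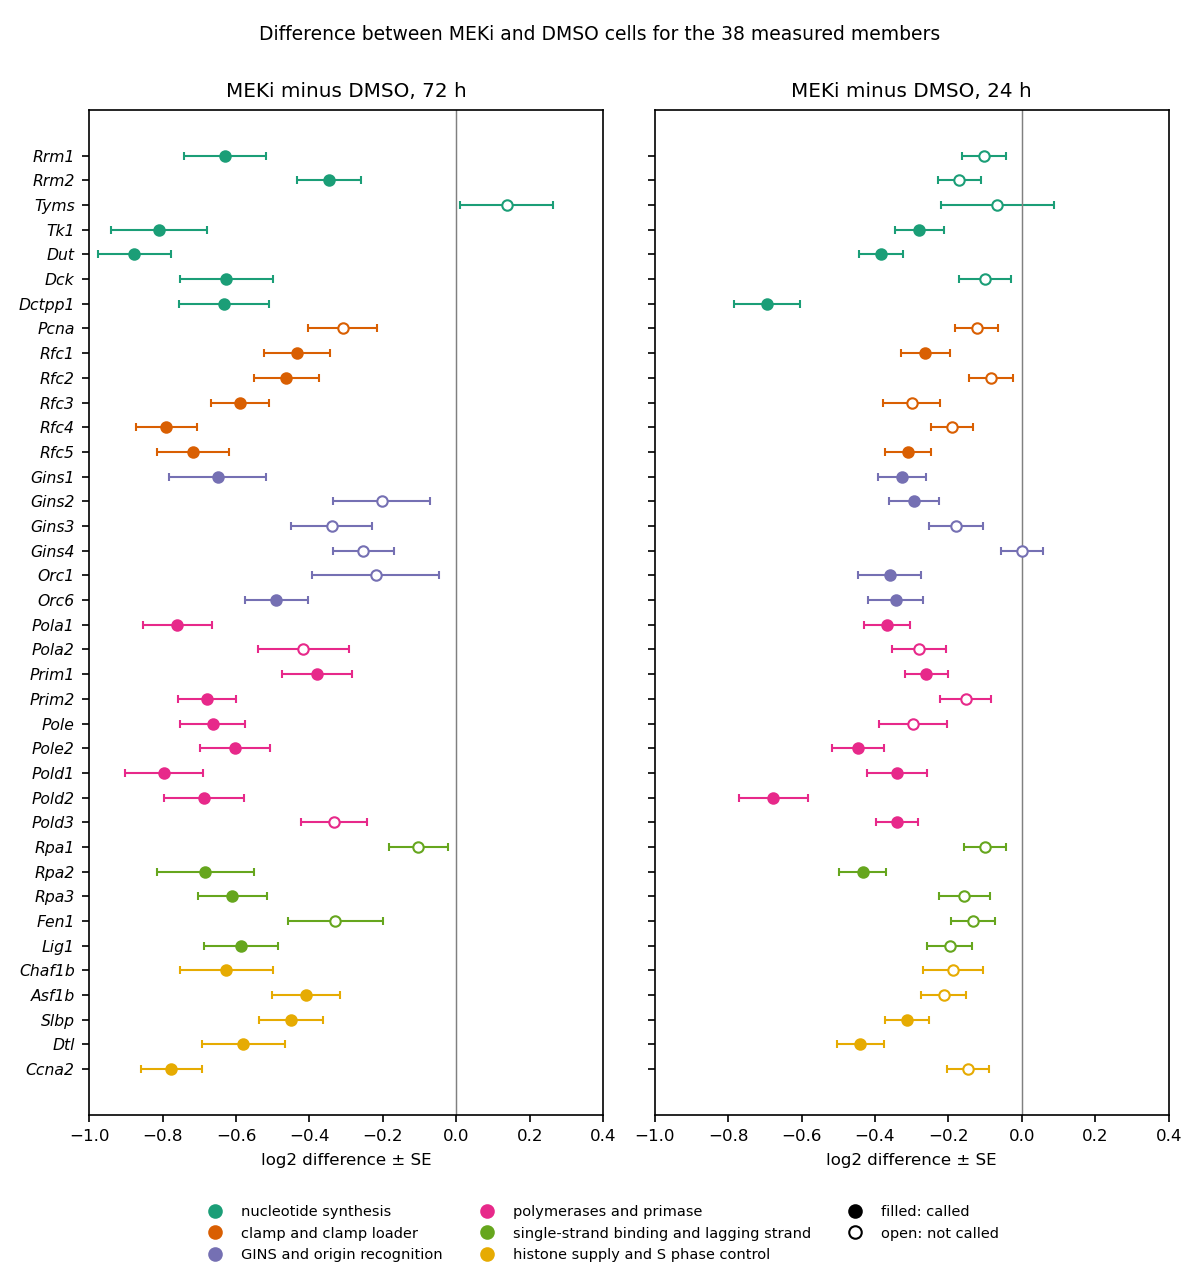
Log2 difference between MEKi and DMSO cells (horizontal axis, ± SE, 3 arrays a group) for each of the 38 measured members (rows, coloured by role), at 72 h on the left and 24 h on the right, with filled points for members called at an adjusted p under 0.05. All filled points lie left of 0, 28 at 72 h and 18 at 24 h, and Tyms at 72 h lies at 0.14.

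Some arrays stood apart, and their part in the results below was tested only by leaving them out and by fits with array weights. With weights, 23 members were called lower at 24 h and 31 at 72 h, where 1687 and 1320 of 18193 genes were. MEKi replicate 3 of 24 h was the highest of its group in 33 of 38 members and correlated with the DMSO arrays of 24 h at r = 0.9965 to 0.9967, against 0.9948 to 0.9959 for replicates 1 and 2. Without it, 22 members were called lower at 24 h. With any other array of 24 h left out the count was 6 to 8, and Dctpp1, Pold2, Pole2, Dtl, Rpa2 and Dut kept their call in all 6 such runs. The count over all 18193 genes moved as well. It was 1067 with every array, 1444 without MEKi replicate 3 and 263 to 458 without any other array of 24 h. Among the DMSO arrays of 72 h, replicate 2 was the highest in 34 members and replicate 3 the lowest in 31, and the median SD of a member was 0.16 there, against 0.07 with MEKi at 72 h, 0.06 with MEKi at 24 h and 0.03 with DMSO at 24 h. At 72 h, leaving out 1 array gave 16 to 29 members called lower, the lowest without MEKi replicate 2, and 16 members kept their call in all 6 runs. Over all genes, 935 were called lower at 72 h with every array and 436 to 796 with 1 left out, the fewest without that same replicate. The array medians lay between 5.31 and 5.42. The interquartile range of the signals was 4.06 to 4.19 in the arrays of 72 h and 4.24 to 4.33 in those of 24 h.

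**Figure D2:**
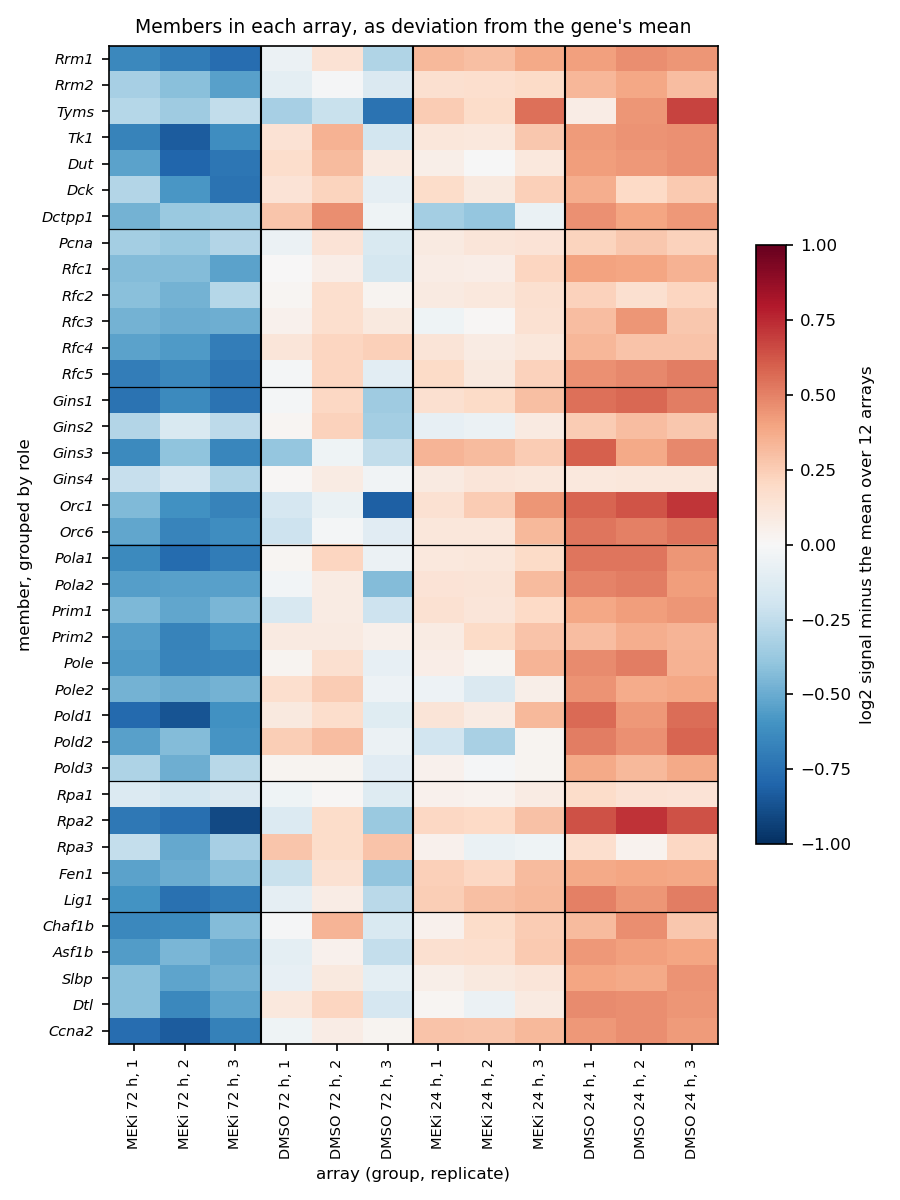
Signal of each of the 38 measured members (rows, grouped by role) in each of the 12 arrays (columns), as the log2 signal minus the mean of that gene over the 12 arrays, red above and blue below it. The median of the members was -0.54 to -0.53 in the MEKi arrays of 72 h, -0.13 to 0.16 in the DMSO arrays of 72 h, 0.11 to 0.22 in the MEKi arrays of 24 h and 0.41 to 0.43 in the DMSO arrays of 24 h.

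The drug labels and the cell type were checked on genes outside the members. Of 6 genes known to be switched on by ERK, 4 were called lower at 72 h, with a median of -1.03, and all 6 at 24 h, with a median of -1.76. Etv4, at 0.02 ± 0.11 (adjusted p = 0.948), and Fos, at -0.76 ± 0.37 (adjusted p = 0.297), were not called at 72 h. The difference of the effects, 72 h minus 24 h, was above 0 in all 6 (median 0.79), and it was called for Etv5, Spry4 and Etv4, less negative at 72 h. From 24 h to 72 h under DMSO, 4 of the 6 were called lower and 1 higher, with a median of -0.62. Under MEKi 0 were called lower and 1 higher, with a median of 0.007. Dusp6, a phosphatase gene switched on by ERK, differed by -1.29 ± 0.12 at 72 h (limma adjusted p = 0.000671) and by -1.41 ± 0.17 at 24 h (adjusted p = 0.00401). Etv5 differed by -1.29 ± 0.12 at 72 h (adjusted p = 0.000744) and Spry4 by -0.58 ± 0.15 (adjusted p = 0.0452, or 0.0699 when arrays with the same replicate number were blocked as pairs), and at 24 h by -4.06 and -2.08 (adjusted p = 0.00255 and 0.000517). All 8 melanocyte markers lay above the median probe set, as did 2 of 7 immune, 1 of 5 fibroblast, 1 of 5 endothelial and 1 of 5 epithelial markers.

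The enzymes of deoxynucleotide synthesis held the 2 largest falls of 72 h, in Dut and Tk1. Of the 7 genes, 6 were called lower at 72 h and 3 at 24 h, with medians of -0.63 and -0.17. Dut, the dUTPase that keeps uracil out of DNA, had log2 signals of 10.26, 10.00 and 10.07 in the MEKi arrays of 72 h, against 10.97, 11.11 and 10.88 in the DMSO arrays. At 24 h Dut had 10.85, 10.79 and 10.90 with MEKi and 11.21, 11.23 and 11.25 with DMSO. The groups did not overlap at either time, and the MEKi arrays of 72 h were the lowest of all 12. Dut fell 1.84-fold at 72 h (-0.88 ± 0.10; adjusted p = 0.00145) and 1.30-fold at 24 h (-0.38 ± 0.06; adjusted p = 0.00964).

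Tk1, the thymidine kinase of the salvage pathway, had 10.42, 10.25 and 10.46 in the MEKi arrays of 72 h and 11.23, 11.43 and 10.90 in the DMSO arrays, a difference of -0.81 ± 0.13 (adjusted p = 0.00631). At 24 h it had 11.20, 11.19 and 11.35 with MEKi and 11.51, 11.53 and 11.54 with DMSO, a difference of -0.28 ± 0.07 (adjusted p = 0.0389). The DMSO arrays of 72 h were spread widely, with replicate 3 low, and still all lay above the MEKi arrays. The call at 24 h was lost when the replicate number was a block (adjusted p = 0.0576).

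Both subunits of ribonucleotide reductase, which makes deoxynucleotides from ribonucleotides, were called lower at 72 h only, as read from their brightest probe sets. Rrm1, the large subunit, had 11.30, 11.25 and 11.19 with MEKi and 11.89, 12.09 and 11.65 with DMSO at 72 h (-0.63 ± 0.11; adjusted p = 0.00952). At 24 h Rrm1 had 12.27, 12.25 and 12.33 with MEKi and 12.36, 12.41 and 12.39 with DMSO, close together without overlap (-0.10 ± 0.06; adjusted p = 0.35). Rrm2, the small subunit made in S phase, had 12.37, 12.28 and 12.16 with MEKi and 12.60, 12.69 and 12.56 with DMSO at 72 h (-0.35 ± 0.09; adjusted p = 0.0432). At 24 h Rrm2 had 12.86, 12.87 and 12.89 with MEKi and 13.03, 13.09 and 13.01 with DMSO (-0.17 ± 0.06; adjusted p = 0.121). The groups of Rrm2 did not overlap at either time, but its call at 72 h was lost when any 1 of the 6 arrays was left out. The second probe set of Rrm2, with a mean of 12.04, was called at neither time (adjusted p = 0.145 at 72 h and 0.104 at 24 h). The third, with a mean of 11.70, was called lower at both (-0.52 ± 0.10 at 72 h, adjusted p = 0.0117, and -0.29 ± 0.07 at 24 h, adjusted p = 0.0461).

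Dctpp1, a pyrophosphatase that breaks down dCTP and its modified forms, had the largest fall of the members at 24 h. It had 9.52, 9.62 and 9.64 with MEKi and 10.27, 10.46 and 9.95 with DMSO at 72 h (-0.63 ± 0.12; adjusted p = 0.014). At 24 h it had 9.65, 9.61 and 9.93 with MEKi and 10.45, 10.39 and 10.43 with DMSO (-0.69 ± 0.09; adjusted p = 0.00531). The MEKi arrays of both times lay in the same range, with replicate 3 of 24 h above the others. The call at 72 h was lost without DMSO replicate 1 or MEKi replicate 1 or 2. Dck, the deoxycytidine kinase of the salvage pathway, differed by -0.63 ± 0.13 at 72 h (adjusted p = 0.0169) and by -0.10 ± 0.07 at 24 h (adjusted p = 0.456).

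Tyms, which makes thymidylate, was not called at either time from its brightest own probe set, and a second one nearly as bright was called lower at both. In the brightest one its log2 signals were 4.75, 4.68 and 4.79 with MEKi and 4.70, 4.81 and 4.30 with DMSO at 72 h, and 5.29, 5.22 and 5.59 with MEKi and 5.11, 5.48 and 5.71 with DMSO at 24 h. The MEKi and DMSO arrays overlapped at both times (-0.07 ± 0.15 at 24 h, adjusted p = 0.852), and the signal was below the median probe set, so that the reading is dim. The second own probe set, with a mean of 4.94 beside 5.04, differed by -0.59 ± 0.15 at 72 h (adjusted p = 0.043) and by -0.62 ± 0.11 at 24 h (adjusted p = 0.0129). The 2 readings of Tyms thus do not give 1 answer. A brighter probe set for Tyms is shared with a pseudogene and was not used.

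Of the clamp and its loaders, 5 of 6 genes were called lower at 72 h and 2 of 6 at 24 h, with medians of -0.53 and -0.23. Pcna, the sliding clamp, had 12.90, 12.87 and 12.95 with MEKi and 13.18, 13.38 and 13.09 with DMSO at 72 h, and 13.33, 13.36 and 13.38 with MEKi and 13.46, 13.51 and 13.47 with DMSO at 24 h. The MEKi arrays lay below the DMSO arrays at both times, but neither difference passed the test (-0.31 ± 0.09 at 72 h, adjusted p = 0.083, and -0.12 ± 0.06 at 24 h, adjusted p = 0.248). All 5 RFC subunits, which form the clamp loader with Rfc1 as the large one, were called lower at 72 h, and Rfc1 and Rfc5 at 24 h.

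Rfc4 had 9.76, 9.73 and 9.61 with MEKi and 10.42, 10.51 and 10.54 with DMSO at 72 h, a tight pair of groups far apart (-0.79 ± 0.08; adjusted p = 0.00111). At 24 h it had 10.43, 10.38 and 10.41 with MEKi and 10.63, 10.58 and 10.58 with DMSO (-0.19 ± 0.06; adjusted p = 0.085). Rfc5 had 9.88, 9.93 and 9.85 with MEKi and 10.55, 10.79 and 10.47 with DMSO at 72 h (-0.72 ± 0.10; adjusted p = 0.00302). At 24 h Rfc5 had 10.76, 10.67 and 10.80 with MEKi and 11.03, 11.05 and 11.08 with DMSO (-0.31 ± 0.06; adjusted p = 0.022), without overlap. Rfc1 differed by -0.43 ± 0.09 at 72 h (adjusted p = 0.0193) and by -0.26 ± 0.07 at 24 h (adjusted p = 0.0473, and 0.0828 with the block, which ends that call).

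Rfc3 differed by -0.59 ± 0.08 at 72 h (adjusted p = 0.00278) and by -0.30 ± 0.08 at 24 h (adjusted p = 0.0502), which missed the threshold, as did Rfc2 at 24 h, whose groups overlapped (-0.08 ± 0.06; adjusted p = 0.465). At 72 h Rfc2 was called lower (-0.46 ± 0.09; adjusted p = 0.0131).

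The GINS and origin recognition genes had the fewest calls at 72 h, 2 of 6 with a median of -0.30, against 4 of 6 with a median of -0.31 at 24 h. Orc1, the large ATPase subunit of the origin recognition complex, had 7.60, 7.43 and 7.37 with MEKi and 7.87, 7.97 and 7.22 with DMSO at 72 h (-0.22 ± 0.17; adjusted p = 0.549). DMSO replicate 3 lay below all MEKi arrays there, and without it Orc1 was called lower at 72 h. At 24 h Orc1 had 8.19, 8.29 and 8.48 with MEKi and 8.62, 8.67 and 8.75 with DMSO, without overlap (-0.36 ± 0.09; adjusted p = 0.0382).

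Orc6, the smallest subunit, had 9.19, 9.05 and 9.09 with MEKi and 9.51, 9.69 and 9.60 with DMSO at 72 h (-0.49 ± 0.09; adjusted p = 0.00911), and 9.83, 9.83 and 10.04 with MEKi and 10.25, 10.22 and 10.26 with DMSO at 24 h (-0.34 ± 0.07; adjusted p = 0.028). Its groups did not overlap at either time. Gins1 had 8.64, 8.74 and 8.64 with MEKi and 9.36, 9.59 and 9.02 with DMSO at 72 h (-0.65 ± 0.13; adjusted p = 0.0165), with DMSO replicate 3 nearest to the MEKi arrays. At 24 h Gins1 had 9.54, 9.57 and 9.68 with MEKi and 9.93, 9.95 and 9.89 with DMSO (-0.33 ± 0.06; adjusted p = 0.0201).

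Gins3 had 7.23, 7.46 and 7.21 with MEKi and 7.48, 7.82 and 7.62 with DMSO at 72 h, and 8.20, 8.18 and 8.12 with MEKi and 8.46, 8.24 and 8.34 with DMSO at 24 h. Neither difference passed (-0.34 ± 0.11 at 72 h, adjusted p = 0.105, and -0.18 ± 0.07 at 24 h, adjusted p = 0.182), while the replicate block gave an adjusted p of 0.0431 at 72 h. The second probe set of Gins3, with a mean of 7.11, was called lower at 72 h (-0.42 ± 0.09; adjusted p = 0.0235) and not at 24 h (-0.23 ± 0.08; adjusted p = 0.116). Gins2 differed by -0.29 ± 0.07 at 24 h (adjusted p = 0.0357, and 0.0576 with the block, which ends the call) and by -0.20 ± 0.13 at 72 h (adjusted p = 0.452). Gins4 did not pass at 72 h (-0.25 ± 0.08; adjusted p = 0.105).

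The polymerases and primase were called lower in 7 of 9 genes at 72 h, with a median of -0.66, and in 6 of 9 at 24 h, with a median of -0.34. Pola1, the catalytic subunit of polymerase alpha, had 8.90, 8.77 and 8.84 with MEKi and 9.56, 9.75 and 9.48 with DMSO at 72 h, 1.69-fold lower (-0.76 ± 0.09; adjusted p = 0.00194). At 24 h it had 9.64, 9.65 and 9.73 with MEKi and 10.07, 10.07 and 9.98 with DMSO, 1.29-fold lower (-0.37 ± 0.06; adjusted p = 0.0126). The groups were well apart at both times. Its partner Pola2 had 8.00, 8.01 and 8.01 with MEKi and 8.52, 8.63 and 8.12 with DMSO at 72 h, where DMSO replicate 3 lay close to the MEKi arrays (-0.42 ± 0.12; adjusted p = 0.0781). At 24 h Pola2 had 8.69, 8.68 and 8.87 with MEKi and 9.05, 9.06 and 8.97 with DMSO (-0.28 ± 0.07; adjusted p = 0.0527), also short of the threshold.

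Of the primase subunits, Prim2, the large one, had 9.18, 9.06 and 9.14 with MEKi and 9.82, 9.82 and 9.78 with DMSO at 72 h (-0.68 ± 0.08; adjusted p = 0.00156). At 24 h Prim2 had 9.81, 9.92 and 10.01 with MEKi and 10.04, 10.09 and 10.07 with DMSO, nearly touching (-0.15 ± 0.07; adjusted p = 0.232). Prim1, the catalytic subunit, was called lower at both times (-0.38 ± 0.10 at 72 h, adjusted p = 0.0415, and -0.26 ± 0.06 at 24 h, adjusted p = 0.0331), and the replicate block ended both calls (adjusted p = 0.051 and 0.0578).

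For polymerase epsilon, Pole2, the second subunit, had 10.01, 9.99 and 10.01 with MEKi and 10.65, 10.74 and 10.43 with DMSO at 72 h (-0.60 ± 0.10; adjusted p = 0.00584). At 24 h Pole2 had 10.43, 10.34 and 10.54 with MEKi and 10.93, 10.85 and 10.87 with DMSO (-0.45 ± 0.07; adjusted p = 0.0097). The catalytic subunit Pole differed by -0.66 ± 0.09 at 72 h (adjusted p = 0.00279) and by -0.30 ± 0.09 at 24 h (adjusted p = 0.0942, not called).

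For polymerase delta, Pold1, the catalytic subunit, had 8.81, 8.72 and 8.98 with MEKi and 9.68, 9.76 and 9.46 with DMSO at 72 h (-0.80 ± 0.11; adjusted p = 0.00273). At 24 h Pold1 had 9.71, 9.67 and 9.91 with MEKi and 10.15, 10.02 and 10.14 with DMSO (-0.34 ± 0.08; adjusted p = 0.0394). Pold2, an accessory subunit, had 9.48, 9.59 and 9.43 with MEKi and 10.27, 10.33 and 9.96 with DMSO at 72 h (-0.69 ± 0.11; adjusted p = 0.00594), and 9.83, 9.70 and 10.05 with MEKi and 10.53, 10.48 and 10.60 with DMSO at 24 h (-0.68 ± 0.09; adjusted p = 0.00605). The MEKi arrays of Pold2 lay below the DMSO arrays at both times, with MEKi replicate 3 of 24 h nearest to them. Pold3, an accessory subunit as well, was called lower at 24 h (-0.34 ± 0.06; adjusted p = 0.0127) and narrowly not at 72 h (-0.33 ± 0.09; adjusted p = 0.0567). The second probe set of Pold3, with a mean of 9.11, was called lower at 72 h (-0.40 ± 0.08; adjusted p = 0.0126) and not at 24 h (-0.32 ± 0.09; adjusted p = 0.0663). The third, with a mean of 8.88, was called at 24 h only (adjusted p = 0.043, and 0.0931 at 72 h).

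**Figure D3:**
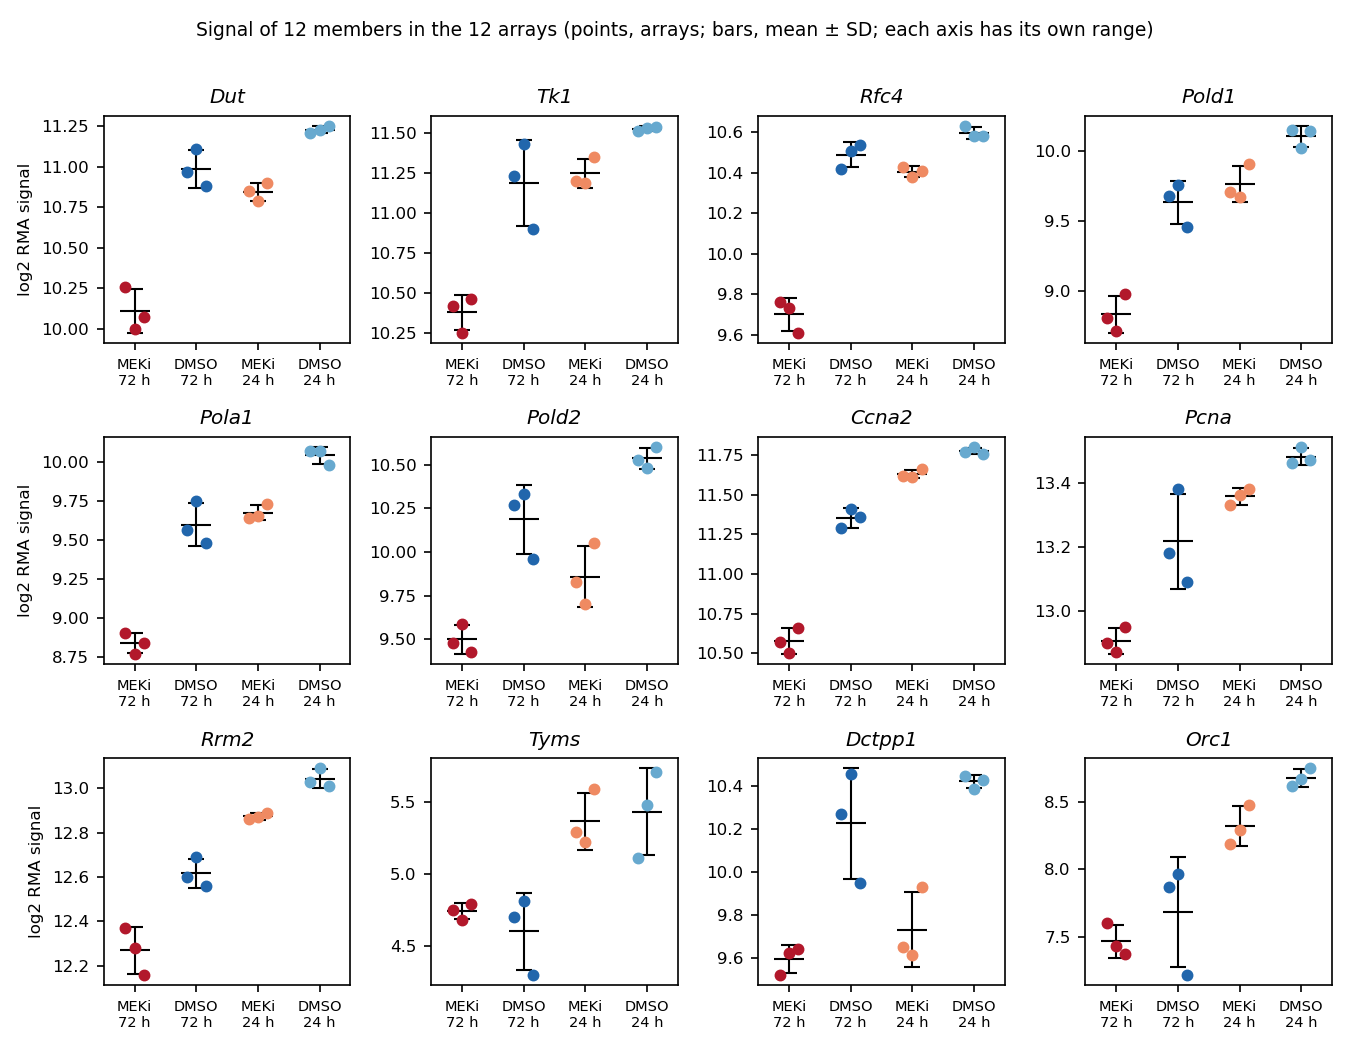
Log2 RMA signal (vertical axis, its own range in each panel) of 12 members in the 12 arrays, by group along the horizontal axis, with points for arrays and bars for the mean ± SD of 3 arrays. In Dut the MEKi arrays of 72 h reached at most 10.26 and the DMSO arrays at least 10.88, whereas in Tyms and Orc1 the 2 groups of 72 h overlapped.

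Among the single-strand binding and lagging-strand genes, 3 of 5 were called lower at 72 h and 1 of 5 at 24 h, with medians of -0.59 and -0.16. Rpa2, the middle subunit of the single-strand binding protein RPA, had 8.86, 8.82 and 8.67 with MEKi and 9.44, 9.76 and 9.20 with DMSO at 72 h (-0.68 ± 0.13; adjusted p = 0.014), and 9.78, 9.77 and 9.87 with MEKi and 10.21, 10.30 and 10.21 with DMSO at 24 h (-0.43 ± 0.06; adjusted p = 0.00748). DMSO replicate 3 was the lowest control of 72 h but stayed above the MEKi arrays. Of the other RPA subunits, Rpa3, the small one, was called lower at 72 h only (-0.61 ± 0.09; adjusted p = 0.00498), and Rpa1, the large one, differed by -0.10 ± 0.08 at 72 h and -0.10 ± 0.06 at 24 h (adjusted p = 0.54 and 0.356).

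Lig1, the ligase that joins lagging-strand fragments, had 10.76, 10.61 and 10.66 with MEKi and 11.27, 11.43 and 11.09 with DMSO at 72 h (-0.59 ± 0.10; adjusted p = 0.00863). At 24 h Lig1 had 11.60, 11.66 and 11.68 with MEKi and 11.86, 11.80 and 11.87 with DMSO (-0.20 ± 0.06; adjusted p = 0.0862), apart but not called. Fen1, the flap endonuclease that trims those fragments, passed at neither time from its brightest probe set (-0.33 ± 0.13 at 72 h, adjusted p = 0.183, and -0.13 ± 0.06 at 24 h, adjusted p = 0.232). Its second one, with a mean of 10.12, was called lower at 72 h (-0.55 ± 0.14; adjusted p = 0.0479) and not at 24 h (-0.09 ± 0.06; adjusted p = 0.461).

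All 5 measured genes of histone supply and S phase control were called lower at 72 h, and 2 of 5 at 24 h, with medians of -0.58 and -0.21. Ccna2, the cyclin A of S phase and G2, had 10.57, 10.50 and 10.66 with MEKi and 11.29, 11.41 and 11.36 with DMSO at 72 h, 1.71-fold lower (-0.78 ± 0.08; adjusted p = 0.00118). At 24 h it had 11.62, 11.61 and 11.66 with MEKi and 11.77, 11.80 and 11.76 with DMSO (-0.15 ± 0.06; adjusted p = 0.167). The groups of 24 h were separate but close, and those of 72 h were wide apart.

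Dtl, the substrate receptor of a ubiquitin ligase that degrades Cdt1 on PCNA, had 9.37, 9.14 and 9.26 with MEKi and 9.89, 10.00 and 9.62 with DMSO at 72 h (-0.58 ± 0.11; adjusted p = 0.0137), and 9.81, 9.73 and 9.88 with MEKi and 10.26, 10.25 and 10.23 with DMSO at 24 h (-0.44 ± 0.06; adjusted p = 0.00727). Its groups did not overlap at either time. Slbp, which binds the stem loop of histone mRNA, was also called lower at both times (-0.45 ± 0.09 at 72 h, adjusted p = 0.014, and -0.31 ± 0.06 at 24 h, adjusted p = 0.0175). The histone chaperones Chaf1b and Asf1b were called lower at 72 h only (-0.63 ± 0.13 and -0.41 ± 0.09, adjusted p = 0.0169 and 0.0275).

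The members also had lower signals at 72 h than at 24 h under each treatment. Under MEKi, 35 of 38 members were called lower and 0 higher, where 16% of all genes were called lower and 13.5% higher, with a median of -0.71. Under DMSO, 24 were called lower and 0 higher, where 16.9% and 14.2% of all genes were, with a median of -0.41. With only the brighter probe sets, 36 members were called lower under MEKi and 28 under DMSO, where 3317 and 3496 of 11334 genes were. The arrays of 72 h lay entirely below those of 24 h in 37 members under MEKi and in 33 under DMSO, where 23.3% and 23.9% of all genes did so. The median over all genes was 0.04 in both. The harvest times also differed in culture age, and the Dap spike-in control had a 3′ minus 5′ signal of 1.34 to 1.47 at 72 h, against 1.96 to 2.16 at 24 h. The part of either in these differences was not tested.

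Under MEKi the steepest falls over time were those of Ccna2 (-1.05 ± 0.07; adjusted p = 2.77e-05), Rrm1 (-1.04 ± 0.07; adjusted p = 2.63e-05) and Rpa2 (-1.02 ± 0.08; adjusted p = 3.8e-05), by 2.08-fold, 2.05-fold and 2.03-fold. Lig1, Pold1, Gins1, Tk1 and Gins3 followed with -0.97, -0.93, -0.92, -0.87 and -0.87. Gins2, Rpa1 and Dctpp1 were not called (-0.22, -0.21 and -0.14; adjusted p = 0.08, 0.0522 and 0.341). Pcna, Rrm2, Tyms and Pola1 were called lower, at -0.45, -0.60, -0.63 and -0.84.

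Under DMSO Orc1 fell most (-0.99 ± 0.17; adjusted p = 0.00341), followed by Tyms (-0.83 ± 0.17; adjusted p = 0.00741) and Rpa2 (-0.77 ± 0.13; adjusted p = 0.00274). Gins3, Orc6, Pola2, Gins1 and Lig1 came next with -0.71, -0.64, -0.60, -0.60 and -0.58. Of 6 GINS and origin recognition genes, 4 were called lower under DMSO, with a median of -0.62, and 5 under MEKi, with a median of -0.82. Only Rpa3 had a difference above 0 under DMSO (0.11 ± 0.08; adjusted p = 0.324). Pola1, Rrm2 and Ccna2 were called lower (-0.44, -0.43 and -0.42), and Pcna was not (-0.26 ± 0.09; adjusted p = 0.0565).

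**Figure D4:**
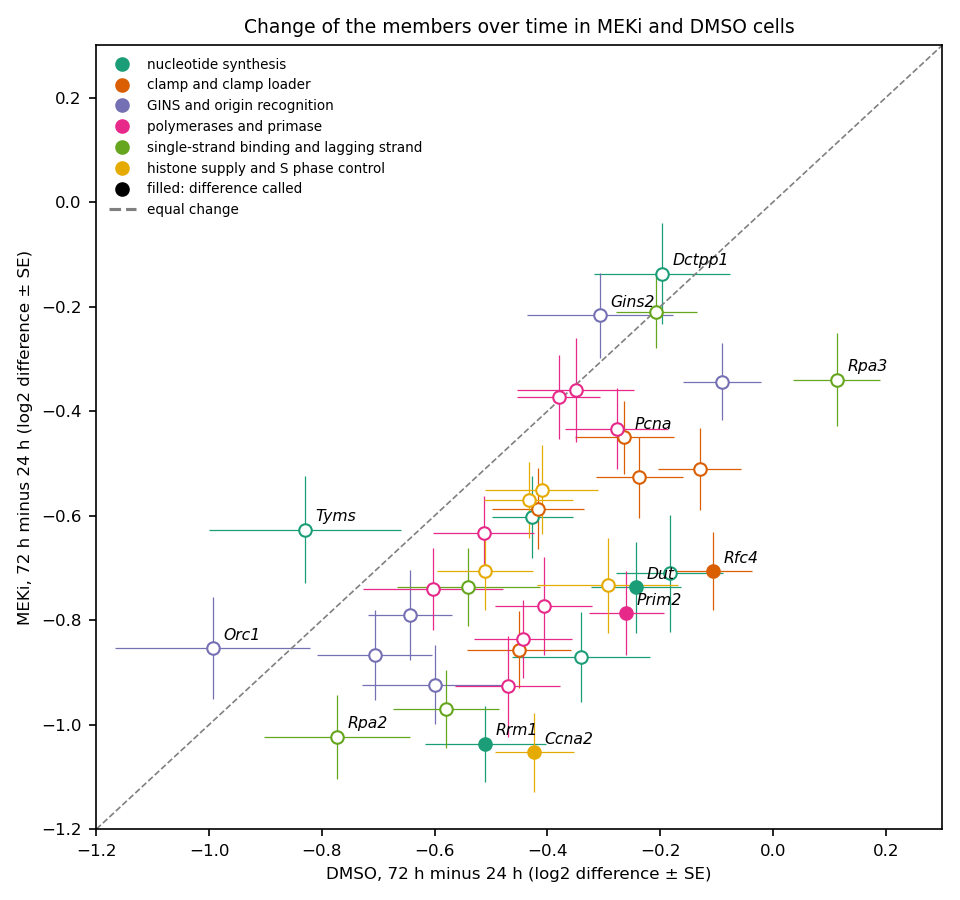
Log2 difference of 72 h minus 24 h under DMSO (horizontal axis) and under MEKi (vertical axis), each ± SE, for the 38 measured members coloured by role, with filled points for the 5 members whose 2 differences were called different and a dashed line where the 2 would be equal. Most points lie below the line, Ccna2 at -1.05 under MEKi and -0.42 under DMSO, and Orc1 and Tyms lie above it.

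Whether MEKi acted more strongly at 72 h than at 24 h was tested as the difference of its effects over all 12 arrays. Of 38 members, 5 were called more negative at 72 h and 0 less negative, where 2.1% of all genes were called in the first direction and 1.97% in the other, and the median was -0.22. These were Ccna2 (-0.63 ± 0.09; limma adjusted p = 0.00408), Rfc4 (-0.60 ± 0.09; 0.00517), Prim2 (-0.53 ± 0.10; 0.012), Rrm1 (-0.53 ± 0.13; 0.0475) and Dut (-0.49 ± 0.12; 0.0366). Ccna2, Rfc4 and Prim2 kept the call whichever of the 12 arrays was left out, and Rrm1 and Dut lost it in most such runs. With the replicate block Dut was no longer called (adjusted p = 0.0564), while Dck (-0.53) and Rpa3 (-0.45) were (adjusted p = 0.041 and 0.0405). Without DMSO replicate 3 of 72 h, 10 members were called, where 369 of 18193 genes were called more negative, against 382 with all 12 arrays.

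For the others the difference of the effects did not pass, which does not show that they were equal. It was -0.39 ± 0.11 for Pola1 (adjusted p = 0.0782), -0.19 ± 0.11 for Pcna (adjusted p = 0.448), -0.18 ± 0.10 for Rrm2 (adjusted p = 0.439) and 0.20 ± 0.22 for Tyms (adjusted p = 0.734).

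Other probe sets of the same genes gave a second reading. Of 42 further probe sets that belong to a member alone, 31, from 22 genes, had a mean above the median probe set. Of those 31, 29 had a difference below 0 at 72 h and 28 at 24 h, and 17 and 10 were called lower, none higher, with medians of -0.46 and -0.25. Of all 45037 probe sets, dim ones included, 1913 were called lower at 72 h and 2077 at 24 h. The 11 dim ones had medians of 0.02 and -0.02, with 1 called at each time, the second one of Tyms. Among the 31, some were called lower where the gene's brightest one was not, for Fen1, Gins3 and Pold3 at 72 h. At 24 h this held for Dck, Prim2, Rfc4 and Rrm2. Others were not called where the brightest one was, for Chaf1b, Dtl, Prim1, Prim2, Rfc1, Rrm2 and Slbp at 72 h. At 24 h these were from Dtl, Dut, Orc1, Pold3, Prim1, Rfc1 and Slbp. In the difference of the effects, 26 of the 31 brighter ones were below 0 and 4 were called more negative at 72 h, with a median of -0.19. Of all 45037 probe sets, 746 were called more negative there. Of the 5 members called there, the second probe sets of Rrm1 (-0.61 ± 0.12; adjusted p = 0.0177) and Rfc4 (-0.41 ± 0.10; 0.0405) were called as well. Those of Ccna2 (-0.49 ± 0.13; 0.0624), Dut (-0.37 ± 0.17; 0.29) and Prim2 (-0.25 ± 0.11; 0.267) were not, nor was the dimmest one of Prim2 (0.18 ± 0.14; 0.599). Averaging over probe sets turned the sign of Tyms at 72 h, to -0.06 as the mean where its brightest one stood at 0.14, and that of Slbp under MEKi over time, to 0.01 as the median where its brightest one fell by 0.57.

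The members whose promoter window held the E2F letters were called lower in 6 of 9 at 72 h and 6 of 9 at 24 h, with medians of -0.59 and -0.34. The 22 other measured members with a window were called lower in 17 at 72 h and 10 at 24 h, with medians of -0.55 and -0.24. Dtl, Pole2, Pold1 and Pola1, among those 9, were called lower at both times, and Gins3 at neither from its brightest probe set.

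Genes of the same pathways outside the members were read from lists chosen by function, also with earlier results of these data known. Of 27 other replication fork genes, 18 were called lower at 72 h and 15 at 24 h, none higher, with medians of -0.56 and -0.30. At 72 h the largest were Cdc45, the helicase partner of GINS (-0.88 ± 0.12; adjusted p = 0.00255), Mcm7, a subunit of the MCM helicase (-0.82 ± 0.10; 0.00159), and Dscc1, of an alternative clamp loader (-0.80 ± 0.11; 0.00308). At 24 h they were Mcm10 (-0.61 ± 0.08; 0.00543), the fork protection gene Timeless (-0.52 ± 0.09; 0.0126) and Mcm3 (-0.51 ± 0.06; 0.00424). Of 9 genes of origin licensing and firing, 5 were called lower at each time, none higher. The licensing factor Cdt1 differed by -0.78 at 72 h and -0.64 at 24 h, and Cdc6 by -0.74 and -0.48. Cdc7, a kinase that fires origins, differed by -0.60 at 72 h, and Orc5 by -0.39 at 24 h.

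Nucleotide supply outside the members was read from 2 lists. Of 12 other genes of deoxynucleotide supply, 6 were called lower at 72 h and 5 at 24 h, none higher, led by the dCMP deaminase Dctd (-1.10 ± 0.12 at 72 h, adjusted p = 0.0014, and -0.80 ± 0.10 at 24 h, adjusted p = 0.00425). The folate enzymes Shmt1 (-0.73 and -0.54 at the 2 times), Shmt2 (-0.69 at 72 h) and Mthfd2 (-0.47 at 24 h) were among them. Of 17 genes of purine and pyrimidine synthesis, 4 were called lower at 72 h and 11 at 24 h, none higher, with medians of -0.22 and -0.38. These included Cad, which starts pyrimidine synthesis (-0.50 ± 0.12 at 72 h and -0.58 ± 0.07 at 24 h), Ppat (-0.47) and Paics (-0.38) at 72 h, and the CTP synthase Ctps (-0.62 ± 0.07) and Atic (-0.57 ± 0.08) at 24 h. Only Ctps was called in the difference of the effects, less negative at 72 h by 0.51 ± 0.12 (adjusted p = 0.0309), a gene named after its values were seen.

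Of 7 other genes of replication-coupled chromatin, 4 were called lower at 72 h and 3 at 24 h, none higher, with the hemimethylation reader Uhrf1 (-0.65 and -0.61), the histone chaperone Nasp (-0.65 and -0.59) and the maintenance methyltransferase Dnmt1 (-0.57 and -0.47) at both times. Of 11 cell cycle genes, 3 were called lower at 72 h and 5 at 24 h. At 24 h Ccnd1, the cyclin D1 of the ERK pathway, differed by -0.85 ± 0.13 (adjusted p = 0.00931), with E2f3 at -0.63 ± 0.08 and E2f2 at -0.46 ± 0.10 (adjusted p = 0.00461 and 0.0289), and Cdk2 was the 1 gene called higher (0.30 ± 0.06; adjusted p = 0.0252), named after its value was seen. At 72 h Mki67, a proliferation marker, differed by -0.62 ± 0.09 (adjusted p = 0.00336), Ccne2 by -0.54 ± 0.12 (adjusted p = 0.0291) and Cdk1 by -0.52 ± 0.09 (adjusted p = 0.00979). Ccnd1, E2f3 and E2f2 were not called at 72 h, where all 11 genes had a difference below 0.

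**Figure D5:**
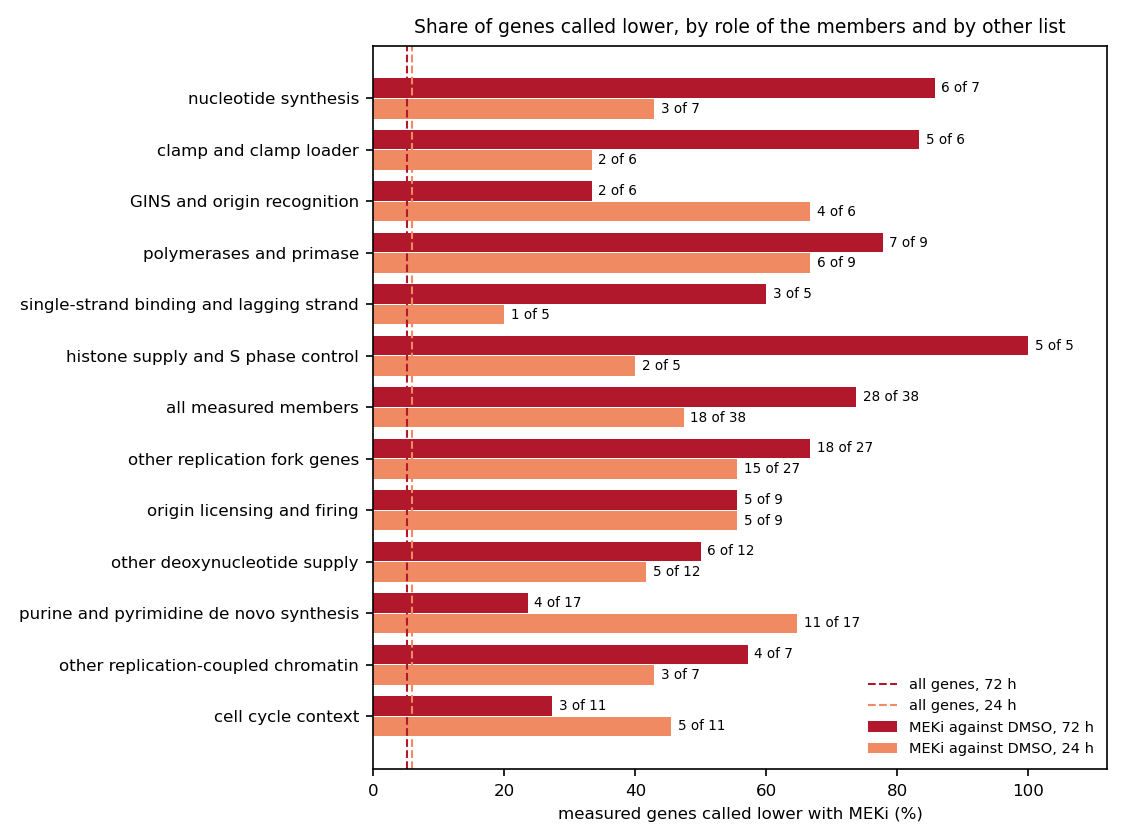
Percentage of measured genes called lower with MEKi (horizontal axis) by role of the members and by other list (rows), at 72 h in dark bars and 24 h in light bars, with the counts beside the bars and dashed lines for all genes (5.14% at 72 h and 5.86% at 24 h). The share was 6 of 7 for nucleotide synthesis at 72 h against 3 of 7 at 24 h, and 4 of 17 for purine and pyrimidine synthesis at 72 h against 11 of 17 at 24 h.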

How the data were processed

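RNA of 12 samples of B16-OVA cells was hybridised to Affymetrix mouse genome arrays, 1 per sample. Per the labels, 200 ng of total RNA was labelled with the 3′ IVT Plus kit, and the authors deposited log2 signals made by RMA, which corrects background, equalises the arrays' distributions and summarises probes. The version is not given in the sources used here. Values carry 2 decimals, so smaller differences are not resolved. Of 45101 probe sets, 64 controls were left out, and of the other 45037 the annotation gave 34945 a lone gene, 932 more than 1 and 9160 no gene. A gene was read from its own probe set with the highest mean over 12 arrays.

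Groups were taken from the titles. Comparisons were limma fits (version 3.58.1, R 4.3.3; lmFit and eBayes, two-sided, Benjamini-Hochberg adjustment over 45037 probe sets, called at adjusted p under 0.05). Pairs of groups used their own 6 arrays without covariates, and the difference of the effects used all 12. Members and lists were chosen with earlier results of these data known. The text names, per comparison, the 8 called members with the largest differences, Pcna, Rrm2, Tyms, Pola1 and Ccna2, up to 3 examples per role, and up to 3 called genes per list. Replicate numbers were checked as pairs by correlating deviations from group means. Same-numbered MEKi and DMSO arrays correlated at 0.13 to 0.189 at 72 h and 0.073 to 0.151 at 24 h over all probe sets, and at 0.214 to 0.307 and 0.207 to 0.283 over the brighter ones, so the numbers were taken as pairs within a time. Across times they were not (-0.017 to 0.107). Blocked values are given where they change a call. Precision is set by the 3 arrays in a group. On simulated data with 50 probe sets changed 1.5-fold, the fits recovered 32 at 72 h, 35 at 24 h and 19 in the difference. False calls numbered 5, 6 and 15. The simulated noise was independent and had the same spread in every group, unlike these arrays, so recovery here may differ. Alternatives were the block, 1 fit of all arrays, brighter probe sets, centring, requantiling, a robust trended prior, weighted arrays, a threshold of 0.01, means and medians over probe sets, and leaving out each array.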

Additional observations from a re-analysis of the deposited data

Results flagged for a closer look

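The effect of MEKi differed between the times in 5 members, by limma's test of the difference itself over all 12 arrays, each more negative at 72 h than at 24 h. On the log2 scale the difference was -0.63 for Ccna2, -0.60 for Rfc4, -0.53 for Prim2, -0.53 for Rrm1 and -0.49 for Dut. A second probe set of the same gene was called for Rfc4 and Rrm1 and not for Ccna2, Prim2 or Dut. Rfc4 differed from DMSO by -0.79 at 72 h and -0.19 at 24 h, and Rrm1 -0.63 and -0.10. The second probe set of Rfc4 was called lower at 24 h as well (-0.84 at 72 h and -0.43 at 24 h; limma adjusted p = 0.000671 and 0.012). So was that of Prim2 (-0.50 and -0.25; 0.0112 and 0.0378). That of Rrm1 was called at 72 h only (-0.68 and -0.07; 0.00472 and 0.59). The Dap 3′ minus 5′ signal was 1.34 to 1.47 at 72 h and 1.96 to 2.16 at 24 h, and its part in these differences was not tested.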

How the results depend on the processing

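No member was called higher under any alternative, in any of the 5 comparisons, and no median of the members changed sign. MEKi against DMSO at 24 h, with 18 members called lower, gave 29 with a trended and robust prior, 6 at a threshold of 0.01 and 6 to 22 with 1 array left out, where fewer arrays were fitted. Over all genes, 1067 were called lower in the main fit, 2059 with that prior and 263 to 1444 with 1 array left out. At a threshold of 0.01 no count over all genes was made, here or in the comparisons below. The members' counts at that threshold therefore have no share of all genes beside them. The members' median of -0.27 became -0.21 as the mean over all own probe sets and -0.21 as their median (-0.214 and -0.215), and -0.319 to -0.24 with 1 array left out, the first without MEKi replicate 3. MEKi against DMSO at 72 h gave 28, 31 with a trended and robust prior, 16 at a threshold of 0.01 and 16 to 29 with 1 array left out. The gap between the times in called members thus depended on the fit. With all 12 arrays in 1 fit, 33 members were called lower at 72 h and 12 at 24 h, where 1503 and 920 of all genes were. Over all genes, 935 were called lower in the main fit, 1192 with that prior and 436 to 796 with 1 array left out. The members' median of -0.59 became -0.426 as the mean over probe sets and -0.466 as their median. For MEKi at 72 h against 24 h the median of -0.71 became -0.782 with arrays centred, -0.624 with quantile normalization again and -0.561 as the mean or median over probe sets. For DMSO at 72 h against 24 h the median of -0.413 became -0.477 with arrays centred and -0.336 with quantile normalization again. The difference of the effects, with 5 members called, gave 11 with brighter probe sets, 13 with a trended and robust prior, 13 with array weights, 2 at a threshold of 0.01 and 3 to 10 with 1 array left out. Over all genes, 382 were called more negative at 72 h in the main fit, 619 with that prior, 737 with weights and 208 to 514 with 1 array left out. With brighter probe sets it was 648 of 11334 genes. The members' median of -0.22 ranged between -0.29 and -0.133, the last without DMSO replicate 2 of 72 h. The cause of these shifts was not tested. Tyms, not called, changed sign as arrays were left out, with -0.228 to 0.072 at 24 h (0.072 without DMSO replicate 3, 0.007 without MEKi replicate 2) and -0.015 to 0.24 at 72 h (-0.015 without DMSO replicate 3), and at 72 h was -0.062 as the mean over probe sets. Slbp under MEKi over time was 0.013 as the median over its probe sets.

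With the replicate number as a block, the counts of members called lower were 28 at 72 h, 14 at 24 h, 35 and 23 over time under MEKi and DMSO, and 6 in the difference. Over all 18193 genes these counts were 1047, 863, 2760, 2778 and 524. Besides the calls named above, the block ended that of Pold2 over time under DMSO (adjusted p = 0.0572) and changed no other.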
